A study of Mus musculus with 12 samples.

Results

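The 4 genes Gria1 to Gria4 encode the subunits of AMPA receptors, and they were followed here through RNA editing, mRNA level and exon usage in mouse frontal cortex. They were chosen by name and make up 4 of 15191 genes in the deposited gene table, 3 of 143 sites in the editing table and 88 of 156805 bins in the exon table. RNA came from male C57BL/6 mice, with 6 libraries of genotype Adar2-/- Gria2R/R, labelled Adar2-/-/Gria2R/R, and 6 of male Adar2+/+ Gria2R/R litter mates. All animals were homozygous for Gria2R, an allele with the arginine codon written into the gene where editing would otherwise turn glutamine into arginine (the Q/R site). No animal therefore had the unmodified Gria2 gene. No age is given, and the labels do not state that each library is from a separate mouse, so the authors' p-values may measure only technical spread.

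AMPA receptors are tetramers of these subunits that open a cation channel when glutamate binds, and they carry most of the fast excitatory current in cortex. ADAR2, the enzyme made from Adarb1, converts adenosines within RNA duplexes to inosines, which ribosomes and sequencers take for guanosines. At the arginine-to-glycine (R/G) site of several subunits this recodes an arginine just before a pair of mutually exclusive exons called flip and flop. From work in rat, R/G editing and the choice of flip or flop are known to set how quickly the receptors desensitize and recover, and the Q/R site of Gria2 to set calcium permeability.

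The tables hold the authors' group values and p-values, with no value per library, so no SD or interval can be given and the depth is unknown. Markers of cortical tissue were listed, among them Camk2a, the kinase of excitatory synapses, with a mean normalized count of 34566. All 4 markers of oligodendrocyte precursors and all 10 of interneurons, cell types that carry AMPA receptors too, were also listed. None of the 14 had an adjusted p under 0.05, where 0.0197% of all listed genes did. The gene table heads its conditions A and B without naming a genotype, so differences are given as A over B, the deposited B over A with its sign turned. On that log2 scale the median difference was 0.12 for both of these lists, 0.04 for 6 astrocyte, -0.01 for 5 oligodendrocyte, 0.05 for 6 microglia, -0.03 for 4 endothelium, 0.22 for 7 striatal neuron, 0.15 for 3 choroid plexus and 0.16 for the 10 cortical tissue markers. Npy, an interneuron peptide gene, had the smallest p of the interneuron list (p = 7.08e-05, adjusted p = 0.199 in the authors' deposited table). Of the striatal markers, Pdyn stood at 0.33 (p = 0.000253, adjusted p = 0.457) and Ppp1r1b at 0.30 (p = 0.00242, adjusted p = 1) in the authors' deposited table. The part of cell composition in the results was not tested. In bulk tissue, fewer cells of a type and less RNA per cell cannot be told apart.

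The sequences around the R/G site are shown because the edited base and the choice of flip or flop lie next to each other in the mRNA. Each line gives the last 15 bases of the R/G exon and the first 15 of the exon that follows, 5′ to 3′ on the sense strand, from GENCODE M21 transcripts (GRCm38, reference mouse). The capital marks the adenosine of the R/G codon, the next to last base of the exon. It is the base known to be edited in Gria2, Gria3 and Gria4, and in the Gria1 lines it marks only the matching position.

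Gria1 flip: ggggtccgccctgAgaggtcccgtaaacct
Gria1 flop: ggggtccgccctgAgaaatccagtaaacct
Gria2 flip: aggatcctcattaAgaaccccagtaaatct
Gria2 flop: aggatcctcattaAgaaatgcggttaacct
Gria3 flip: aggctcagcattaAgaacgcctgtaaacct
Gria3 flop: aggctcagcattaAgaaatgctgttaacct
Gria4 flip: gggttcctcattaAgaactcctgtaaacct
Gria4 flop: gggttcctcattaAgaaatgctgttaacct

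All 4 genes have an aga codon at this place, split over the exon junction. The R/G exon ends in ttaag in Gria2, Gria3 and Gria4 and in ctgag in Gria1, so that the base before the marked adenosine is a in Gria2, Gria3 and Gria4 and g in Gria1. The codon after it is aat in all 4 flop forms, and acc, acg and act in the flip forms of Gria2, Gria3 and Gria4 but ggt in that of Gria1. The R/G exon is 248 bases long in all 4 genes and 75.4% to 83.1% identical between them, and each flip or flop exon is 115 bases long. Flip and flop of 1 gene are less alike, with 68.7% identical bases in Gria1 and Gria2, 72.2% in Gria3 and 73.0% in Gria4, than the same form in any pair of these genes, at 87.8% to 94.8%.

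Editing at the R/G site fell in all 3 subunits listed, by very different numbers of percentage points. Gria2 was edited at 23.2% of reads in Adar2-/- cortex, against 73.0% in Adar2+/+ cortex (chromosome 3, position 80496208 on mm9). Gria4, a subunit found in many interneurons, was edited at 23.4% in Adar2-/- cortex, against 79.5% in Adar2+/+ cortex (chromosome 9, position 4456006). Gria3, whose gene lies on the X chromosome, was edited at 81.2% in Adar2-/- cortex, against 94.3% in Adar2+/+ cortex (chromosome X, position 39007429). Gria2 and Gria4 thus stood at nearly the same value without ADAR2, while Gria3 stayed above both of their control values.

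The authors' deposited table gives adjusted p-values of 3.77e-51 for Gria4, 3.37e-29 for Gria3 and a value listed as 0 for Gria2. Editing fell by 56.0 points in Gria4, fell by 49.8 points in Gria2 and fell by 13.1 points in Gria3. Relative to Adar2+/+ cortex, 29.5% of the editing was left in Gria4, 31.8% in Gria2 and 86.1% in Gria3. Of all 143 sites, 39.2% fell by the same rule, an adjusted p under 0.05, and 9.09% rose. The share that fell was 86.4% among the 22 sites that change an amino acid, so a fall at 3 of 3 sites is close to what these sites showed in general. Editing of Gria1 and of the Q/R site of Gria2 was not analysed here.

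The gap between Gria3 and the other subunits depends on the side from which it is read. Counted as unedited reads, Gria3 had 18.8% in Adar2-/- cortex against 5.75% in Adar2+/+ cortex, a ratio of 3.27. Gria4 had 76.6% unedited reads in Adar2-/- cortex against 20.5% in Adar2+/+ cortex (ratio 3.73), and Gria2 had 76.8% in Adar2-/- cortex against 26.97% in Adar2+/+ cortex (ratio 2.85). On that scale Gria3 lies between Gria4 and Gria2, a comparison chosen after the data were seen. The most this ratio can reach is set by the unedited share in Adar2+/+ cortex. That limit is far higher for Gria3 than for Gria4 and Gria2, so similar ratios do not mean a similar loss of editing. On the scale of odds, the log2 ratio of Adar2-/- over Adar2+/+ was -3.66 for Gria4, -3.16 for Gria2 and -1.93 for Gria3. The differences between subunits were not tested, since neither coverage nor library values are given.

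Set beside all 22 amino acid sites, Gria4 had the fifth and Gria2 the eighth fall in points, and Gria3 ranked 20 of 22. Gria3 kept the highest editing in Adar2-/- cortex of these 22 sites and ranked 2 in Adar2+/+ cortex, after the I/M site of Gabra3, which encodes a subunit of GABA-A receptors. Gabra3 had 19.1% edited reads in Adar2-/- cortex against 96.3% in Adar2+/+ cortex and kept 19.8% of its editing. Of the 9 listed sites above 90% in Adar2+/+ cortex, Gria3 and Gabra3 fell and the other 7, none with an amino acid change, did not pass. The largest difference among those 7 was that of a 3′ UTR site in Txndc9, at 71.4% in Adar2-/- cortex against 90.3% in Adar2+/+ cortex (adjusted p = 0.212 in the authors' deposited table). At the remaining 16 amino acid sites that fell, in 13 genes, between 0% and 40.7% of the editing was left, with a median of 5.06%. Gria3 lay above that range, and Gria2 and Gria4 lay in its upper part. The 6 of those sites edited above 70% in Adar2+/+ cortex kept 2.42% to 39.5%. By the ratio of unedited reads, Gria3 ranked 6, Gria4 5 and Gria2 9 of the 22. The same 6 sites ran from 2.52 to 21.6, a range that holds all 3 R/G sites. Ranks by this ratio partly follow editing in Adar2+/+ cortex, since a site with little editing there cannot reach a high ratio. The Y/C site of Cacna1d, at 0% in Adar2-/- cortex against 19.2% in Adar2+/+ cortex, reached only 1.24.

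**Figure D1:**
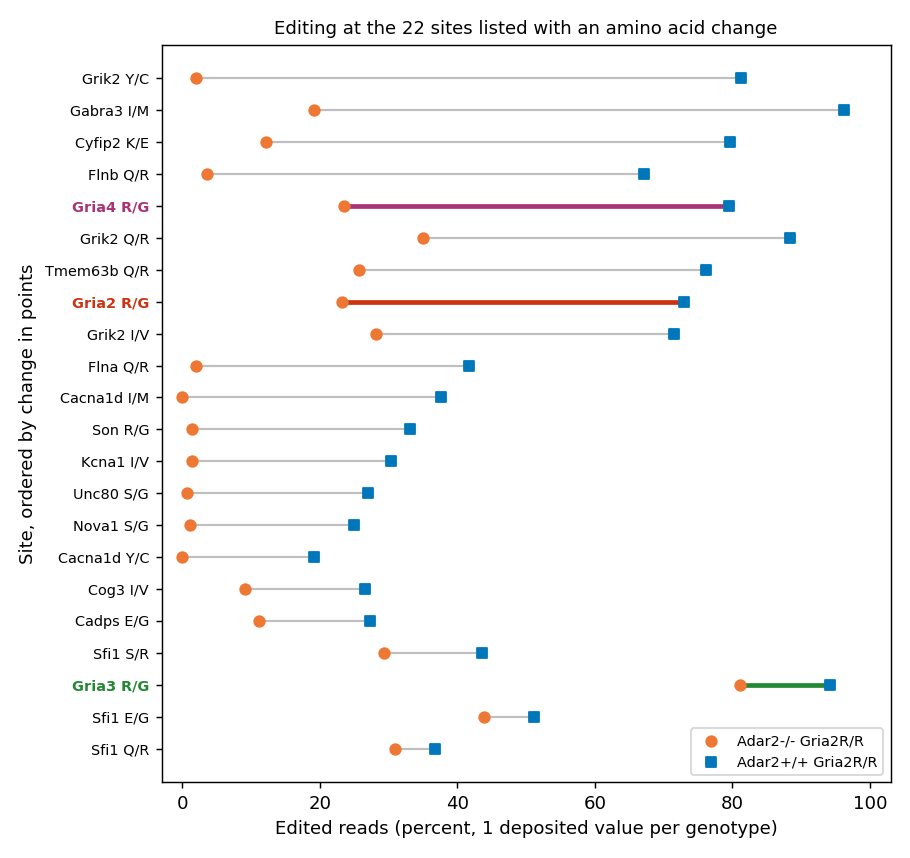
Percent of edited reads at the 22 sites with an amino acid change, with circles for Adar2-/- Gria2R/R and squares for Adar2+/+ Gria2R/R, 1 deposited value per genotype, joined by a line and ordered by the change in points. The R/G sites of Gria2 and Gria4 end near 23% in Adar2-/- cortex, and that of Gria3 stays at 81.2%.

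The sites closest to each R/G site in percent edited over both genotypes were looked up among all other genes. Nearest to Gria2 was the Q/R site of Tmem63b, a gene of an osmosensitive channel, with 25.8% in Adar2-/- cortex and 76.1% in Adar2+/+ cortex. The I/V site of the kainate receptor gene Grik2 came next, with 28.1% in Adar2-/- cortex and 71.5% in Adar2+/+ cortex. Nearest to Gria4 were a 3′ UTR site of 2610005L07Rik, with 21.4% in Adar2-/- cortex and 80% in Adar2+/+ cortex, and again Tmem63b. The neighbours of Gria3 were both in 3′ UTRs. The first, in Rpa1, had 84.4% in Adar2-/- cortex and 89.1% in Adar2+/+ cortex, and the second, in Cds2, had 80.3% in Adar2-/- cortex and 87.5% in Adar2+/+ cortex. Of these 2 the authors' deposited table calls Cds2 (adjusted p = 5.56e-06) but not Rpa1 (adjusted p = 0.238). Distances to the 6 neighbours ran from 2.08 to 6.84 points over the 2 genotypes, so likeness here rests on 2 values per site.

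No difference in the mRNA of any of the 4 subunits between conditions A and B passed the authors' test. In the authors' deposited table the log2 difference was 0.09 for Gria1 (ENSMUSG00000020524, p = 0.345), -0.01 for Gria2 (ENSMUSG00000033981, p = 0.982), -0.01 for Gria3 (ENSMUSG00000001986, p = 0.897) and -0.11 for Gria4 (ENSMUSG00000025892, p = 0.151). The adjusted p was 1 for each of them. Their mean normalized counts over all libraries were 11637 for Gria1, 41549 for Gria2, 14289 for Gria3 and 6263 for Gria4, values that also depend on transcript length. In percent the difference was 6.64 for Gria1, -0.85 for Gria2, -0.84 for Gria3 and -7.40 for Gria4. Over all listed genes, 0.0197% had an adjusted p under 0.05 and 1.86% an unadjusted p under 0.05, and none of the 4 subunits met either rule. Adarb1, the gene targeted in Adar2-/- mice, was lower in condition A, with a log2 difference of -2.21 in the authors' deposited table (adjusted p = 3.06e-126). That is the direction if A holds the Adar2-/- libraries, which the headers do not state. Adar, which encodes the other active deaminase ADAR1, was at 0.02 in the authors' deposited table (adjusted p = 1).

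How abundant the subunits were relative to each other was read from exon bins of like length. The bins were matched to exons by their order, without coordinates, as described below. In Gria4 the counts did not follow exon length over all exons used, so its values are the least certain. The R/G exon, 248 bases in each gene, had a mean normalized count over all libraries of 2977 in Gria2, 1006 in Gria3, 928.2 in Gria1 and 271.7 in Gria4. Over 8 exons of like length the level of Gria3 was 28.6% to 43.0% of that of Gria2 (median 32.2%), that of Gria1 19.6% to 42.2% (median 25.1%) and that of Gria4 9.12% to 19.5% (median 17.4%). The order Gria2, Gria3, Gria1, Gria4 held in all 8 exons. The level of Gria3 was 161% of that of Gria1 at the 168-base exon, where they were farthest apart, and 101.9% at the 199-base exon, where they were closest. Whether such neighbours in the order differ beyond the spread between libraries cannot be said from group means.

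The level of Gria4 relative to Gria1 was lower over its later exons than over its earlier ones. At the exon of 54 bases its level was 68.5% of that of Gria1, at that of 159 to 162 bases it was 66.4%, and at those of 168, 105 and 108 to 111 bases it was 91.5%, 88.5% and 86.5%. At the 207-base exon that follows it was 38.8%, at the 199-base exon 39.0% and at the R/G exon 29.3%. Relative to Gria2 the step was less even. The level of Gria4 was 17.2% to 19.5% of that of Gria2 over the earlier exons. It was 9.76% at the 207-base exon, 16.5% at the 199-base exon and 9.12% at the R/G exon. The annotation ends a short protein-coding Gria4 transcript between these groups of exons. Whether that transcript makes up the difference was not tested.

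**Figure D2:**
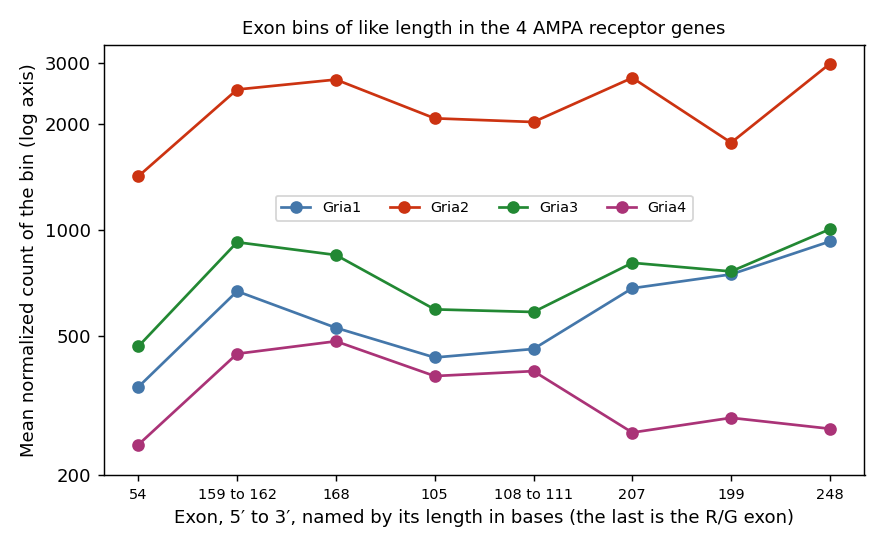
Mean normalized count (log axis, all libraries of both genotypes together) of 8 exon bins in Gria1 to Gria4, from 5′ to 3′, named by exon length in bases. Gria2 lies above the other genes throughout, with 2977 at the R/G exon, and Gria4 drops at the 207-base exon to 38.8% of Gria1. Bins were matched to exons by order, without coordinates.

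Exon usage asks whether a bin changes relative to the rest of its gene. No bin of the 4 genes had an adjusted p under 0.05, where 0.00738% of all 149137 tested bins did, and the deposited adjusted p was 1 for all 88. An unadjusted p under 0.05 was found for 2 of the 88 (2.27%), against 1.67% of all tested bins. In the authors' deposited table the log2 change of Adar2-/- over Adar2+/+ ran from -0.09 to 0.15 over 20 bins of Gria1, from -0.07 to 0.11 over 18 of Gria2, from -0.29 to 0.07 over 30 of Gria3 and from -0.11 to 0.25 over 20 of Gria4. The sign of the deposited control over Adar2 is turned in these values. The median size of the change was 0.03 over the 88 bins and 0.07 over all tested bins.

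The exon table gives bin numbers without coordinates, so flip and flop were found by the order of the bins against the order of exon segments in GENCODE M21. Flop lies next to the R/G exon and flip after it in all 4 genes of that annotation, told apart by the codon after the R/G codon. For exons 5 to 13, the last being the R/G exon, the mean count followed exon length in Gria1, Gria2 and Gria3 (earlier exons were not used). The rank correlation across bins was 0.97 in Gria1 (9 bins), 0.82 in Gria2 (9) and 0.76 in Gria3 (8, without exon 11). In Gria4 it was -0.12 over all 9, so counts did not follow length there. Split at the drop seen in the same counts, it was 1 over the 5 exons before and 0.4 over the 4 after. No shifted value was computed for that split, and the placement in Gria4 is less certain. Shifted by 1 bin, the correlation was at most 0.3 in any gene. The exon table rests on another set of exons than GENCODE M21, whose segments number 26, 33, 35 and 22 in Gria1, Gria2, Gria3 and Gria4, against last bins of 22, 18, 34 and 22. Counts could be set against length only up to the R/G exon, since flip and flop are equally long, so the names flip and flop rest on bin order in all 4 genes. These correlations describe bins of 1 gene that share libraries and are no test.

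For Gria2 a further doubt concerns the bins after the R/G exon (E006). By order, flop is E005 and flip E004, with mean counts of 870.0 and 508.4, and E003 is the 249-base exon that follows. E003 then has 0.39 of the count of the equally long R/G exon, where the matching 246-base exon of Gria3 has 1.01. If E005 were a further bin, flop would be E004, flip E003 with 1162, and the 249-base exon E002, at 0.90 of the R/G exon. The second reading fits exon length better at this exon. Both readings are given.

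In Gria3 the bins of smallest p were flop and the bin before it. Flop (E028, mean count 168.2) had a log2 change of -0.27 in the authors' deposited table (unadjusted p = 0.0104, adjusted p = 1). The bin between the R/G exon and flop (E027, mean count 290.3) had a log2 change of -0.29 in the authors' deposited table (unadjusted p = 0.0190, adjusted p = 1). It matches a 556-base segment that the annotation gives to a transcript with the intron between R/G exon and flop retained, so both bins are part of that transcript. Flip (E029, mean count 522.9) stood at 0.07 with p = 0.344, and the R/G exon (E026) at 0.01 with p = 0.918, in the authors' deposited table. Neither E027 nor E028 passed once all bins were taken into account.

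In Gria4 flip (E004) was listed at 0.25 with p = 0.0944 and flop (E005) at -0.11 with p = 0.331 in the authors' deposited table. Their mean counts were 64.9 for flip and 140.7 for flop, so the larger value belongs to the bin with few reads. The smallest p of Gria4 was at E019, near the 5′ end, with a log2 change of 0.13 and p = 0.0785 in the authors' deposited table.

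In Gria1 flip (E019) stood at 0.03 with p = 0.795 and flop (E018) at -0.09 with p = 0.724 in the authors' deposited table, with mean counts of 271.8 and 207.0. The smallest p of Gria1 was at E016, the exon before the R/G exon, with -0.09 and p = 0.186 in the authors' deposited table. In Gria2 the bins read by order as flip (E004) and flop (E005) stood at 0.11 with p = 0.198, the smallest p of the gene, and at -0.07 with p = 0.596 in the authors' deposited table.

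With the bins read by order, flip had a positive and flop a negative log2 change in each of the 4 genes. Flip and flop are mutually exclusive and usage is relative to the rest of the gene. Opposite signs within a gene are therefore not independent observations. The difference of flip minus flop on the log2 scale was 0.36 in Gria4, 0.34 in Gria3, 0.18 in Gria2 and 0.13 in Gria1. The other reading of Gria2 fits exon length better at the 249-base exon. In that reading flop (E004) was at 0.11 and flip (E003) at 0.05, and the difference was -0.06, so the shared direction then covers 3 genes. The genes share all 12 libraries, the lowest unadjusted p of the 8 bins was that of Gria3 flop, and the difference between flip and flop was not tested. Flip made up 75.7% of the summed mean count of the pair in Gria3, 56.8% in Gria1 and 31.6% in Gria4. In Gria2 it was 36.9% by order and 69.6% in the other reading.

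**Figure D3:**
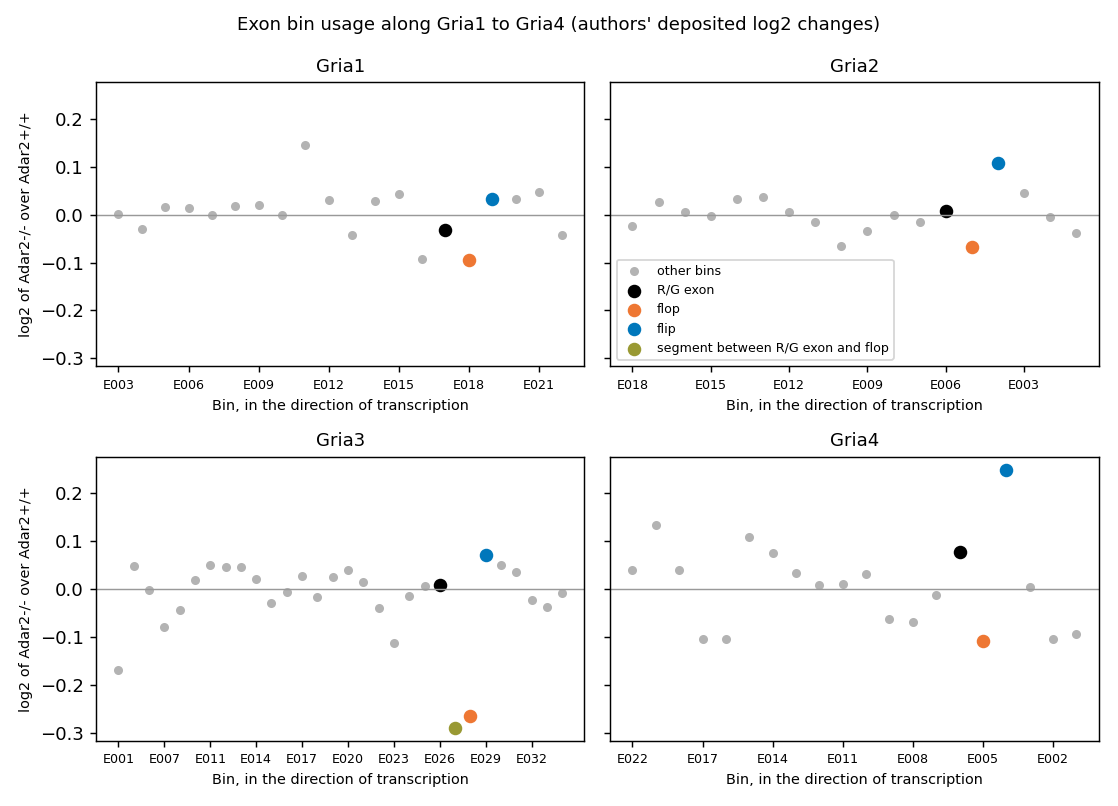
Log2 change of exon bin usage, Adar2-/- over Adar2+/+ (authors' deposited values, sign turned), for all 88 bins of Gria1 to Gria4 in the direction of transcription, with the R/G exon, flop, flip and the segment between R/G exon and flop of Gria3 in colour. Flip lies above and flop below 0 in each panel with Gria2 read by order, and none of these bins had an adjusted p under 0.05. In the other reading of Gria2 both lie above 0.

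Genes that build and move AMPA receptors were described by the same gene table. Over all 15191 listed genes, 8031 were positive in A over B, the median was 0.01 and 0.0197% had an adjusted p under 0.05. Of 19 auxiliary subunit genes 17 could be read, none of them passed, and 14 were positive, with a median of 0.07. Their log2 differences ran from -0.10 for Abhd6, a lipase that binds the receptors, to 0.81 for Shisa6, which had a mean count of 79.2 and p = 0.296 in the authors' deposited table. Cacng2, the gene of stargazin, stood at 0.02, Cacng8 at 0.11 and the cornichon gene Cnih2 at 0.04 in the authors' deposited table.

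Of 20 scaffold and trafficking genes 19 could be read, none of them passed, 10 were positive and the median was 0.0011. Arc, an activity-induced gene that promotes AMPA receptor endocytosis, had the lowest value, -0.54 (p = 0.00333, adjusted p = 1), in the authors' deposited table. Nptx1, a secreted pentraxin that clusters the receptors, stood at 0.20 (p = 0.0261, adjusted p = 1) in the authors' deposited table. The highest value, 0.24, was that of the kinase gene Prkcc (p = 0.179, adjusted p = 1) in the authors' deposited table. Dlg4, which encodes PSD-95, stood at 0.19, Nsf at 0.04 and Pick1 at -0.0033 in the authors' deposited table.

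The other ionotropic glutamate receptors showed no called change either. All 5 kainate receptor genes were positive in A over B, from 0.07 for Grik2 to 0.32 for Grik5 (p = 0.0903), with a median of 0.13 in the authors' deposited table. Of the 8 NMDA and delta receptor genes read, out of 9, 7 were positive, from -0.00098 for Grin2c to 0.51 for Grin2d, whose mean count was 65.7, and the median was 0.05. The median of the 4 AMPA receptor genes was -0.01, and 1 of them was positive. Of all 15191 listed genes 8031 were positive.

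**Figure D4:**
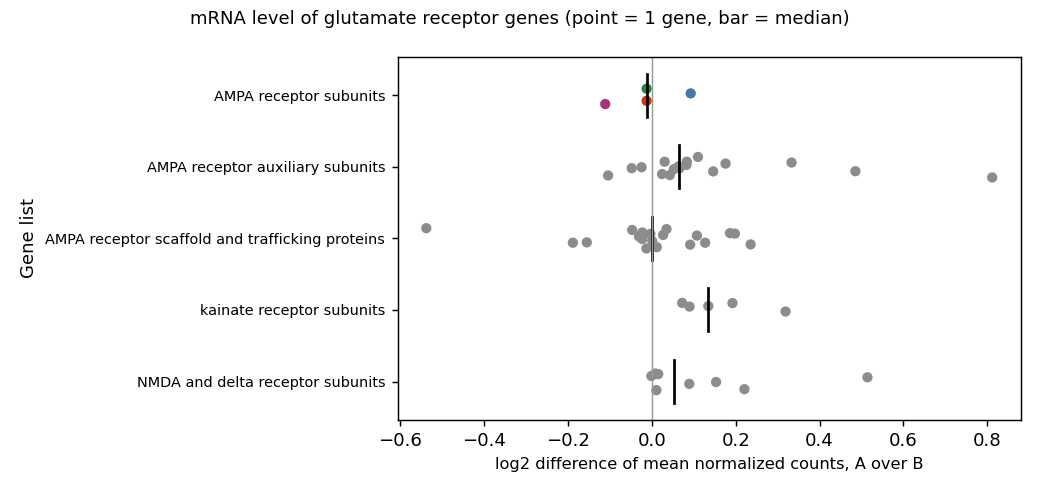
Log2 difference of mean normalized counts, condition A over condition B, for each gene (point) of 5 lists, with the list median as a bar and the AMPA receptor genes in colour. The 4 AMPA receptor genes lie between -0.11 and 0.09, and no gene shown had an adjusted p under 0.05.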

How the data were processed

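The 3 tables hold the authors' comparisons of 6 Adar2-/- Gria2R/R and 6 Adar2+/+ Gria2R/R libraries, grouped by the genotype label. Libraries came from a stranded total RNA kit with removal of ribosomal RNA, per the labels' protocols. Tools listed without role or order, per the submitters' processing notes, are DESeq, HTSeq, SAMtools 01.19.0, Bowtie2 2.02.0 and TopHat2 2.0.6, and the build is mm9. Per the file headers, the gene table gives a mean normalized count (a signal), the ratio of condition B over A, its log2, and p-values. Per the file headers, the exon table gives a mean normalized count, a log2 ratio of control over Adar2, p-values and a dispersion score, and the editing table the percent of edited reads, an adjusted p and a position, another kind of deposited value. Which exon program, site caller and tests were used, the coverage and any pooling: not given in the sources used here. Left out were 2 columns of means per condition, since they name no genotype.

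Calls used the deposited adjusted p under 0.05. Log2 values were turned to A over B and to Adar2-/- over Adar2+/+. Lowest listed mean counts were 15.01 per gene and 20.0 per bin. Gene IDs of the exon table were matched to symbols through a table of gene names, and 4 of 4 matched. No coordinate of GRCm38 was used with mm9. Analysis used Python 3.11.15, pandas 2.3.3 and scipy 1.17.1, and the Benjamini-Hochberg step was tested on simulated data. The members and lists were chosen with earlier results of these data known. Named were all Gria sites, the R/G, flip and flop bins, the bins of smallest p, the 2 nearest sites per site, in each receptor or trafficking list the extremes and genes with an unadjusted p under 0.05, and a few further members, markers and sites after their values were seen. Alternatives were other thresholds, adjustments, count minimums, scales and bin assignments.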

Additional observations from a re-analysis of the deposited data

How the results depend on the processing

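The call of 3 R/G sites held at an adjusted p under 0.01 or 0.1 and with a difference of at least 10 points. It also held by Bonferroni over the listed sites, applied to the authors' already adjusted p. No subunit gene was called under any of 4 alternatives. No exon bin was called when adjusted over the listed bins, at an adjusted p under 0.1 or with a mean count of at least 50, and 2 were at an unadjusted p under 0.05. Among the R/G sites, Gria3 moved to rank 2 and Gria2 to rank 3 by the fold change of unedited reads. That scale was chosen after seeing the data, and how far it can rise is limited by editing in Adar2+/+ cortex. Without the Sfi1 sites, none of which passed, Gria3 ranked last by the fall in points, 19 of 19 amino acid sites. With the other reading of the Gria2 bins, flop was at 0.11 (log2). In all, 38 of 43 alternative values kept their side or moved by less than the median size of change over all bins or genes. Several of these alternatives could not have moved a value that far. Centring on the median of all genes shifts a value by 0.0063, where the median size over all genes was 0.060. The count is therefore no measure of how firm the results are. Bins could not be placed by coordinates, which the exon table does not give. No paired analysis was possible because library values were not in the tables and the labels pair no litter mates. Coverage per site is unknown, and this limits every comparison between sites.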
